A study of Mus musculus with 6 samples.

Results

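The replication-dependent histone genes were followed in 2 mouse pluripotent cell lines measured on Illumina bead arrays. They were found by name alone: every probe whose gene symbol in the platform annotation, brought up to date through a RefSeq gene table, was one of H1f1 to H1f5 or a numbered H2ac, H2bc, H3c or H4c gene, or carried an older Hist1h, Hist2h, Hist3h or Hist4h name. This gave 90 of the 45281 probes on the array, for 60 of its 19053 named genes. Of these, 84 probes of 55 genes matched by current symbol, and 6 probes of H1f6, H2aw, H2bu2, H2bu1-ps and H4f16 matched by the older name only. No measured value entered this match. The family was put forward, however, with results of the same comparison known, so the counts over it describe these arrays and are not independent evidence.

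The i2PS cells are a pluripotent line obtained by reprogramming hepatocytes inside the liver of BALB/c mice, and E14TG2A is an embryonic stem cell line of strain Sv129 taken from the inner cell mass of a blastocyst. Cultures were begun in DMEM and LIF over feeder fibroblasts from mouse embryos, and 3 passages on gelatin then served to get rid of these feeders. Each line had 3 arrays, described as biological replicates, and each is a single line. Strain, origin and reprogramming history differ together and cannot be told apart, and the errors below cover the spread between cultures of these lines only.

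Replication-dependent histones are the bulk proteins that wrap newly made DNA, and they are made mainly in S phase. The core histones H2A, H2B, H3 and H4 form the nucleosome, and the linker histone H1 binds where DNA enters and leaves it. Their genes lack introns and lie in clusters as many near-identical copies. Their mRNAs normally end in a stem-loop bound by Slbp in place of a poly(A) tail. Pluripotent cells cycle fast, with a short G1 phase. The labelling kit named in the labels primes from oligo(dT), so how far each signal stands for stem-loop mRNA, for a polyadenylated form or for priming inside the message was not tested.

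Of the 60 genes, 47 had a probe detected (detection p under 0.01, against the array's negative controls) on every array of one or both lines, and these were tested. The kept probe with the highest mean stood for its gene. Mean signal per array was 228 in E14TG2A replicate 1 and 340 to 403 on the other 5 arrays. Of 9 pluripotent cell markers, all were detected on every array. Of 9 fibroblast markers, Col1a2, Col3a1, Lum and Postn were detected on no array, whereas Col5a1 and Thy1 were detected on all. Those last genes were called in opposite directions, Col5a1 lower (-1.01 ± 0.21, limma adjusted p = 0.0045) and Thy1 higher in i2PS (0.84 ± 0.16, limma adjusted p = 0.0027), and their summed signal was 239 to 471 in E14TG2A and 305 to 378 in i2PS. Col1a1 was detected on 2 E14TG2A arrays and on no i2PS array, and Dcn and Pdgfra were each detected on 1 i2PS array and on no E14TG2A array. Of 8 hepatocyte markers, 7 were detected on no array. The part of feeder cells in the results below was not tested.

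Most core histone genes other than those of H2A were lower in i2PS cells. Of the 47 tested genes, 25 were lower in i2PS and 2 were higher at an adjusted p under 0.05 (limma, Benjamini-Hochberg over 8651 genes). This is 53.2% lower and 4.26% higher, beside 20.4% lower and 23.3% higher among all tested genes, of which 43.7% were called in either direction. The 25 include H4c2 and H4c3, which passed the detection filter only through E14TG2A. When only genes detected on all 6 arrays were tested, 24 of 43 histone genes were lower, beside 19.9% of all genes. The median log2 difference, i2PS minus E14TG2A, was -0.40 over the histone genes and 0.03 over all genes. The lines did not overlap for 32 of the 47 genes, beside 55.8% of all genes. The differences were small. For 44 genes the 95% confidence interval lay within 2-fold, as it did for 80.8% of all tested genes, and the estimate passed 2-fold for H2ac18 alone. The number of lower calls was 16 of 47 without i2PS replicate 1, beside 17.2% of all tested genes. It was 1 of 47 when arrays were scaled to equal medians instead of quantile normalized, beside 3.2% of all tested genes. The excess of lower calls was thus not seen under equal medians. Under equal medians 634 genes in all were called, and the median over all genes moved to 0.19 and that of the histone genes to -0.22. The 2 higher calls became 4 without E14TG2A replicate 1, and 1 without E14TG2A replicate 3 or without i2PS replicate 2.

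**Figure D1:**
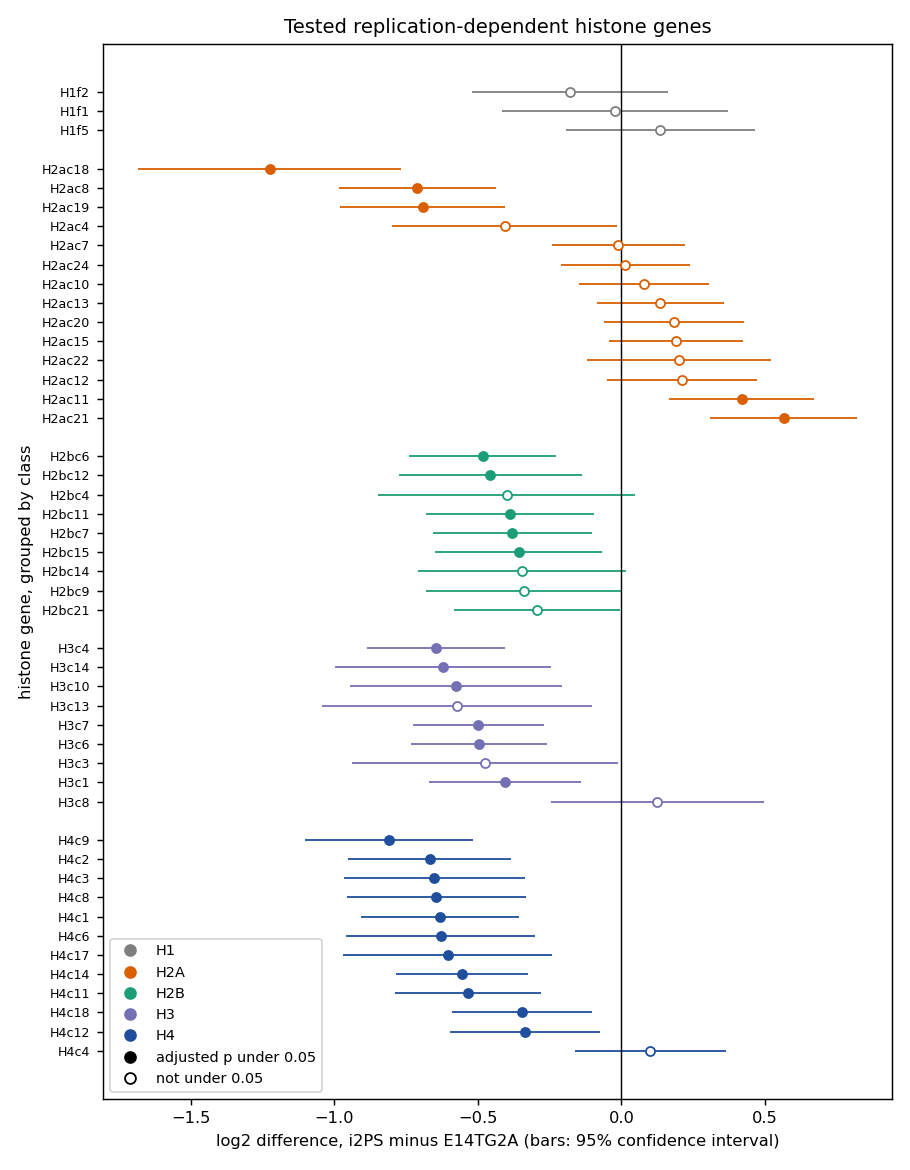
Log2 difference of each of the 47 tested histone genes, i2PS minus E14TG2A, grouped by class, with bars for the 95% confidence interval and filled points for an adjusted p under 0.05. Of the H4 points, 11 are filled and left of 0, while the H2A genes run from -1.23 to 0.56.

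The H4 genes, which encode the histone that pairs with H3 in the core of the nucleosome, were lower most often. Of 12 tested genes, 11 were lower in i2PS, beside 20.4% of all tested genes, with a class median of -0.62. H4c9 led them. Its normalized log2 values were 7.38, 7.30 and 7.16 in E14TG2A and 6.24, 6.58 and 6.59 in i2PS. Every i2PS array lay below every E14TG2A array, and the difference was -0.81 ± 0.13 (SE, n = 3 per line; limma adjusted p = 0.0011), or 1.75-fold lower. H4c1, the H4 gene with the highest mean, had 9.17, 9.36 and 9.32 in E14TG2A and 8.46, 8.77 and 8.73 in i2PS. Its groups did not overlap either, and it differed by -0.63 ± 0.12. H4c2 and H4c3 were detected on all 3 E14TG2A arrays and on no i2PS array. Their folds are therefore bounds, at least 1.34-fold lower for H4c2 and at least 1.31-fold lower for H4c3, where the fit gave log2 differences of -0.67 and -0.65. H4c2 and H4c3 passed the detection filter only through the line where they are higher, so their calls lend no support to the H4 count. The other genes called lower were H4c8 (-0.64), H4c6 (-0.63), H4c17 (-0.60), H4c14 (-0.55), H4c11 (-0.54), H4c18 (-0.35) and H4c12 (-0.34). Some of them were dim, with deposited signals of 114 to 152 for H4c17 and 108 to 160 for H4c14. The median probe signal was 88.3 to 103.3 per array. The sizes moved with the processing, and shrank under an alternative setting to -0.23 for H4c17, -0.22 for H4c14 and -0.17 for H4c18. H4c4 was the exception. It gave 5.68, 5.90 and 5.74 in E14TG2A and 5.80, 6.02 and 5.80 in i2PS, the groups overlapped, and the difference was 0.10 ± 0.12 (limma adjusted p = 0.51). The stretches just before the start of H4c9 and H4c4 are shown because they are the H4 genes with the largest fall and with no call. They come from RefSeq on GRCm38.p6, from chr13:22041363-22041512 on the minus strand and chr13:23581418-23581567 on the plus strand, 5′ to 3′. Capitals mark TATAAA, the letters of a TATA box, and CCAAT or its reverse complement ATTGG.
H4c9: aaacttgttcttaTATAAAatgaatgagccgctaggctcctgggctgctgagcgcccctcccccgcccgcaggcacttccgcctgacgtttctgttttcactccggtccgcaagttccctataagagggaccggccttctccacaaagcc
H4c4: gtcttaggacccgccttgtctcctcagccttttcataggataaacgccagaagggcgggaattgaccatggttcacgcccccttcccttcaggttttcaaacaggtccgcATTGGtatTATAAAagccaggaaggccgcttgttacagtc

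Of 9 tested H3 genes, whose product carries many of the tail modifications that mark active and silent chromatin, 6 were lower in i2PS. The class median was -0.50, and 20.4% of all tested genes were lower. H3c4 differed by -0.65 ± 0.11 (limma adjusted p = 0.0013). H3c14 (-0.62), H3c10 (-0.58), H3c7 (-0.50), H3c6 (-0.50) and H3c1 (-0.40) also passed the test. H3c13, the H3 gene with the highest mean, gave 11.71, 10.99 and 10.80 in E14TG2A and 10.70, 10.57 and 10.52 in i2PS. Although its groups did not overlap, E14TG2A replicate 1 stood well above the others, and the difference of -0.57 ± 0.21 missed the threshold (limma adjusted p = 0.051). H3c3 (-0.48) and H3c8 (0.12) were detected on 5 of the 6 arrays and were not called.

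All 9 tested H2B genes, whose product pairs with H2A, had a negative difference. Of the 9, 5 passed the test, beside 20.4% of all tested genes called lower. The 5 were H2bc6 (-0.48), H2bc12 (-0.46), H2bc11 (-0.39), H2bc7 (-0.38) and H2bc15 (-0.36, limma adjusted p = 0.049), and the class median was -0.38. H2bc21, with the highest mean of the class, gave 8.49, 8.34 and 8.41 in E14TG2A and 7.90, 8.32 and 8.14 in i2PS. The i2PS values were all below those of E14TG2A, but replicate 2 came close, and the difference of -0.29 ± 0.13 was not called (limma adjusted p = 0.092). H2bc4 (-0.40), H2bc14 (-0.35) and H2bc9 (-0.34) were not called either, and their groups overlapped.

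Of the 14 tested H2A genes, 3 were lower (21.4%) and 2 were higher (14.3%), near or below the 20.4% and 23.3% of all tested genes. Their median was 0.11, and it was -0.04 after cyclic loess normalization. H2ac18 had the largest fall of the family. Its log2 values were 6.55, 7.13 and 6.69 in E14TG2A and 5.39, 5.33 and 5.98 in i2PS. The groups did not overlap, and the difference was -1.23 ± 0.20 (limma adjusted p = 0.0013), or 2.34-fold lower. Its other kept probe was detected on all 3 E14TG2A arrays and on no i2PS array, and so gives no measured fold. H2ac18 was the only one of the 27 called histone genes that stayed past the threshold under each of the 18 alternative settings. All 27 kept their sign under each setting that tested them, which was 17 for H4c2 and H4c3, left out by the filter for detection on all 6 arrays. H2ac19, its neighbour on chromosome 3, gave 8.05, 7.72 and 7.92 in E14TG2A and 7.04, 7.31 and 7.27 in i2PS, without overlap, a difference of -0.69 ± 0.13 (limma adjusted p = 0.0023). H2ac8 on chromosome 13 gave 6.32, 6.52 and 6.29 in E14TG2A and 5.81, 5.68 and 5.51 in i2PS. It too had no overlap, with a difference of -0.71 ± 0.12 (limma adjusted p = 0.0015).

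H2ac21 and H2ac11 were the 2 histone genes called higher in i2PS. H2ac21 on chromosome 3 gave 10.05, 9.95 and 10.03 in E14TG2A and 10.40, 10.67 and 10.65 in i2PS. Each i2PS array exceeded each E14TG2A array, and the difference was 0.56 ± 0.11 (limma adjusted p = 0.0036), or 1.48-fold higher. H2ac11 on chromosome 13 gave 11.21, 11.07 and 10.95 in E14TG2A and 11.42, 11.59 and 11.48 in i2PS, again without overlap, a difference of 0.42 ± 0.11 (limma adjusted p = 0.015), or 1.34-fold higher. The stretches before H2ac18, H2ac19 and H2ac21 are shown because these H2A genes of the chromosome 3 cluster were called in different directions, the adjacent H2ac18 and H2ac19 lower and H2ac21 higher. They are chr3:96245347-96245496 (plus strand), chr3:96240375-96240524 (minus strand) and chr3:96219735-96219884 (plus strand) on GRCm38.p6, from RefSeq, with the same capitals as above.
H2ac18: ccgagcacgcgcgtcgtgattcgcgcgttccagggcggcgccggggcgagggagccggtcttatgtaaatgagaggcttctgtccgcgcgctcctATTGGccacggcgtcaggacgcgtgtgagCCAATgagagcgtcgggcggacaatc
H2ac19: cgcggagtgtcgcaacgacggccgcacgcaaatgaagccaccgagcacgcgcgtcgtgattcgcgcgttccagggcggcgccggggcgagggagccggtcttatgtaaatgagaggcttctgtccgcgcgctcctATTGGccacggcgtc
H2ac21: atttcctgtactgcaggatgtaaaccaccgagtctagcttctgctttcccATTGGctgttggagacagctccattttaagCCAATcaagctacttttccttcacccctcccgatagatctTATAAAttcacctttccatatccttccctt

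The promoter windows of H2ac18 and H2ac19 were 96.5% identical over 260 aligned columns. Whether their probes take up each other's RNA was not tested.

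A set of 8 H2A genes had probes with signals near the top of the arrays. In all, 12 probes of H2ac7, H2ac10, H2ac12, H2ac13, H2ac15, H2ac20, H2ac22 and H2ac24 gave deposited signals of 4673 to 33645 on every array and ranked between 1 and 357 among the probes of an array. All other probes of the replication-dependent family stayed at or below 3303. H2ac20 has a place here by 1 of its 2 kept probes, since its other probe had a mean signal of 117. None of these 8 genes passed the limma test, and 0 had an unadjusted p under 0.05. Among all genes with a mean log2 value above 12, 14.7% were higher and 13.8% lower. H2ac12 gave 13.71, 13.73 and 13.91 in E14TG2A and 13.88, 14.14 and 13.97 in i2PS, which overlapped (0.21 ± 0.12). H2ac22 gave 12.93, 12.48 and 12.45 in E14TG2A and 12.77, 12.87 and 12.83 in i2PS, with replicate 1 of E14TG2A above all others (0.20 ± 0.14). H2ac24, with the highest mean of the class, gave 14.92 on every E14TG2A array, 14.95 and 14.86 in i2PS replicates 2 and 3 and a slightly higher value in i2PS replicate 1, a difference of 0.01 ± 0.10. The equal E14TG2A values follow from the normalization, since this probe held the same rank on each of those arrays and quantile normalization gives equal ranks equal values. The remaining bright genes were H2ac15 (0.19), H2ac20 (0.18), H2ac13 (0.14), H2ac10 (0.08) and H2ac7 (-0.01). Among the 39 histone genes with a mean of at most 12, 25 were lower, beside 20.6% of all genes at that level. The 6 H2A genes among these had 3 lower and 2 higher, with a median of -0.55, where 23.6% of all genes were higher. All 8 histone genes above 12 were H2A genes. Whether the H2A pattern goes with class or with signal level was not tested. The level of 12 was chosen after the values were seen. H2ac4, a dimmer H2A gene, differed by -0.41 and was not called.

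**Figure D2:**
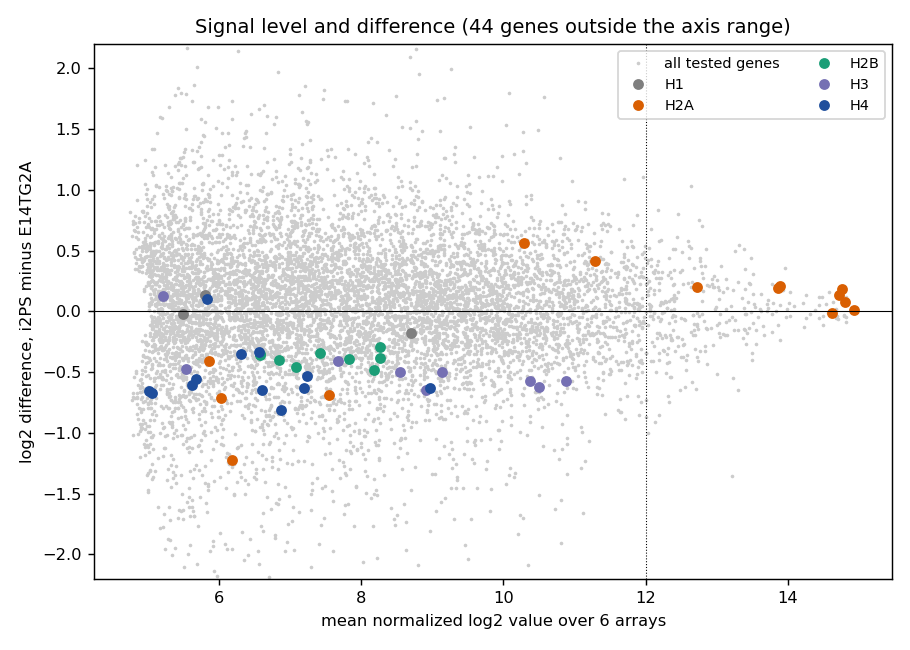
Log2 difference of each tested gene, i2PS minus E14TG2A, against its mean normalized log2 value over 6 arrays; grey points are all genes, coloured points the histone classes, and the dotted line marks a mean of 12. The 8 H2A genes right of the line lie between -0.01 and 0.21, and 44 genes fall outside the plotted range.

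The linker histone genes H1f1, H1f2 and H1f5 did not pass the limma test, and 0 of the 3 had an unadjusted p under 0.05. H1f2 had the highest mean, with 8.46, 8.90 and 9.0 in E14TG2A and 8.50, 8.60 and 8.72 in i2PS. The groups overlapped, and the difference was -0.18 ± 0.15. H1f1 differed by -0.02 ± 0.17 and H1f5 by 0.14 ± 0.15.

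Array by array, the shift was shared by the core classes other than H2A. With each gene centred on its own mean, the median H4 value was 0.28, 0.34 and 0.20 on the E14TG2A arrays and -0.33, -0.23 and -0.21 on the i2PS arrays. For H3 it was 0.33, 0.25 and 0.12 against -0.26, -0.22 and -0.28, and for H2B 0.29, 0.26 and 0.03 against -0.35, -0.01 and -0.17. All E14TG2A medians of these classes were above 0 and all i2PS medians below it, with E14TG2A replicate 3 and i2PS replicate 2 nearest together for H2B. The H2A medians stayed between -0.07 and 0.07. Of the 14 H2A genes, 8 had a mean log2 value above 12, a level that no other histone class reached. These values come from the same arrays as the calls and add no independent support.

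**Figure D3:**
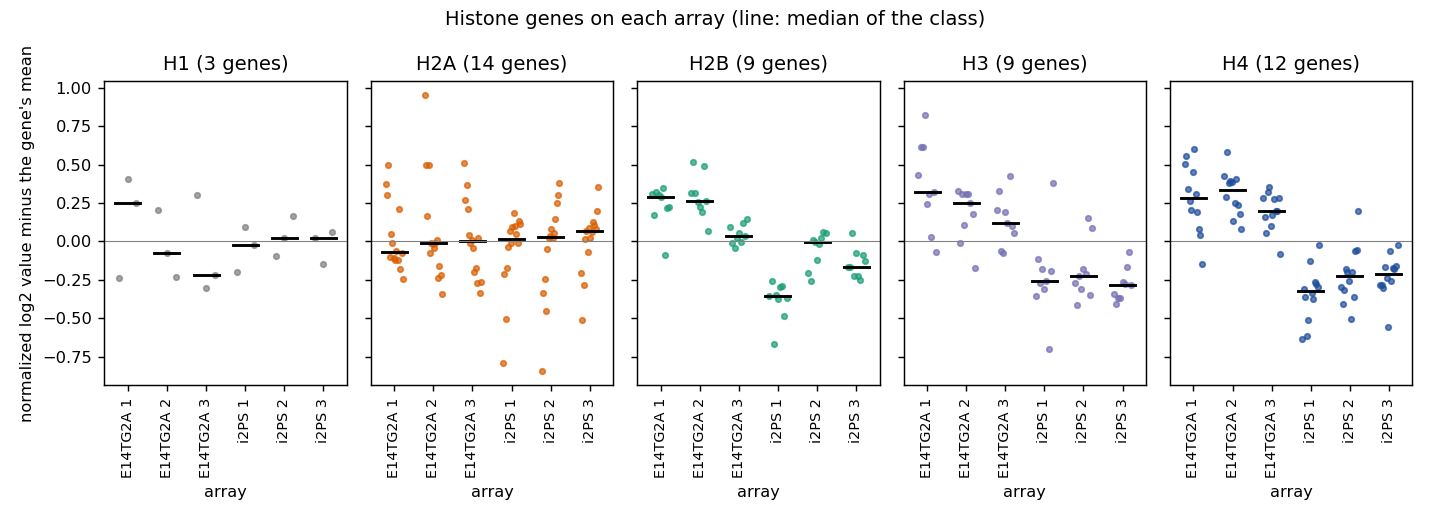
Normalized log2 value of each tested histone gene minus that gene's mean over 6 arrays, by array and class; points are genes and the black line is the class median. The H4, H3 and H2B medians lie above 0 on the E14TG2A arrays and below 0 on the i2PS arrays, and the H2A medians lie between -0.07 and 0.07.

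Many of these genes are near-identical copies, and whether their probes measure them separately was not tested. The RefSeq table lists all 13 H4 genes on the array as synonyms of one another, and the 12 tested ran from -0.81 to 0.10. A group of 8 H3 genes, of which 6 were tested, ran from -0.65 to -0.48 with 4 lower, and another of 4, of which 3 were tested, ran from -0.58 to 0.12 with 2 lower. H2bc7, H2bc11 and H2bc15, named as copies, were all lower, between -0.39 and -0.36. Beside these counts of lower genes stand 20.4% among all tested genes. Of the 14 further kept probes of the tested genes, 13 had the sign of the probe that stood for the gene. The exception was H2ac7, whose other probe gave 0.12. A shared sign was not always a shared call when every kept probe was fitted. The other probes of the called genes H3c10 (-0.27, limma adjusted p = 0.14) and H4c6 (-0.40, limma adjusted p = 0.078) missed the threshold. Those of H2bc6, H2bc12, H3c14, H4c12 and H4c18 passed it.

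Both the cluster on chromosome 13 and that on chromosome 3 held lower genes. Beside each count in this paragraph stand 20.4% lower and 23.3% higher among all tested genes. On chromosome 13, 21 of 39 tested genes were lower and 1 was higher, with a median of -0.39. On chromosome 3, 4 of 8 were lower and 1 was higher, with a median of -0.56. No difference between the clusters was tested. By class, 10 of 11 H4, 5 of 7 H3 and 5 of 8 H2B genes on chromosome 13 were lower, but only 1 of its 10 H2A genes was lower and 1 was higher. Split at gaps of 100 kb, the chromosome 13 genes from H4c8 to H1f1 had 12 of 22 lower (median -0.44), those from H2ac12 to H2bc11 had 3 of 5 lower (median -0.39), and those from H2bc13 on had 6 of 12 lower (median -0.34). The 22 nearest tested genes that are no histones around the chromosome 13 cluster had 4 higher and 4 lower and a median of -0.07, and the 20 around the chromosome 3 cluster had 6 higher and 4 lower and a median of 0.18. Sox4, a transcription factor gene (-1.68 ± 0.26), and E2f3, an activator of S phase genes (1.16 ± 0.12), both lie after the chromosome 13 cluster.

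**Figure D4:**
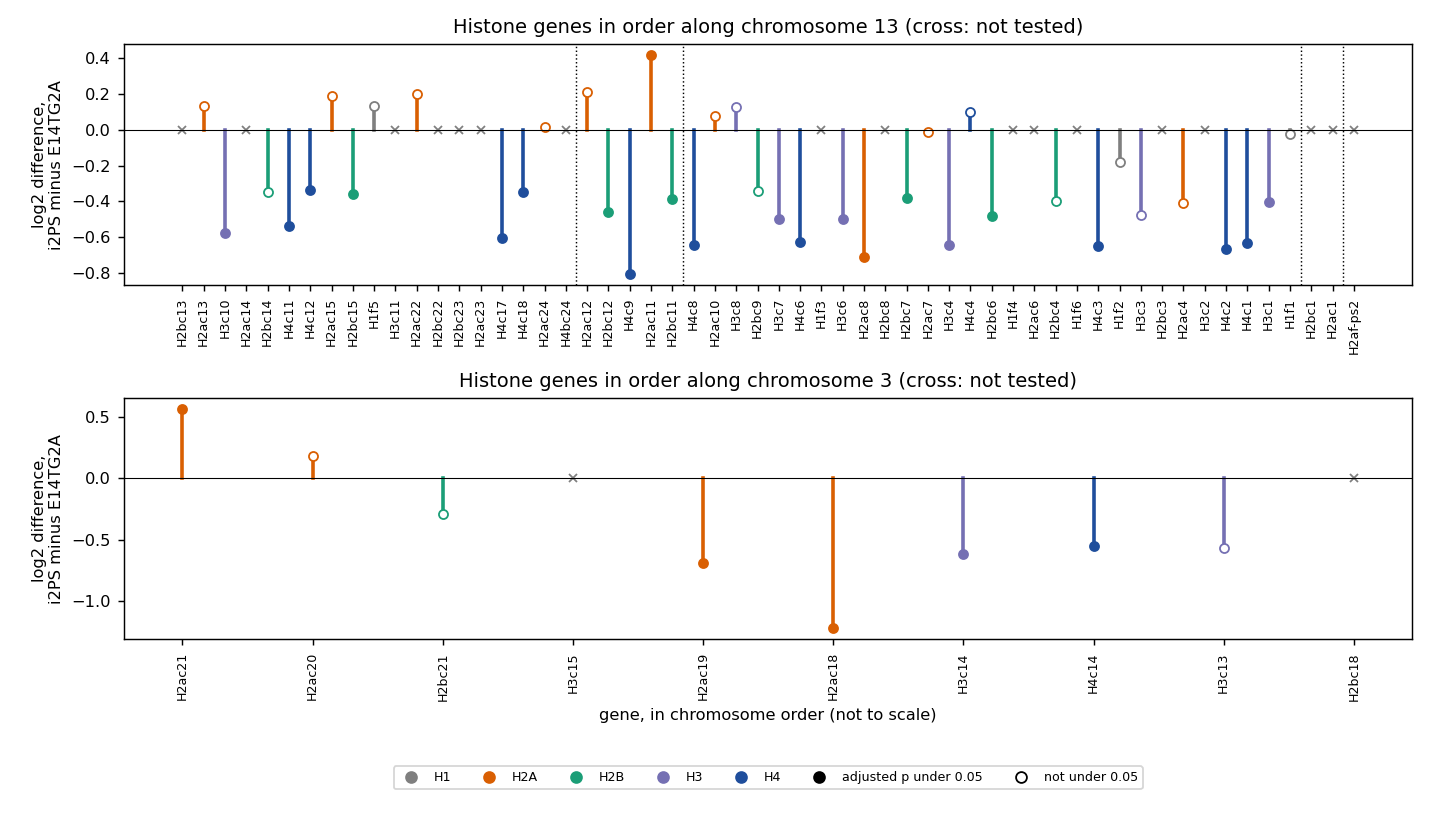
Log2 difference, i2PS minus E14TG2A, of the histone genes in their order along chromosomes 13 and 3, coloured by class, with filled points for an adjusted p under 0.05, crosses for genes not tested and dotted lines at gaps over 100 kb. On chromosome 13, lower H4, H3 and H2B genes stand between H2A genes, of which 8 of 10 were not called. On chromosome 3 the H2A genes run from -1.23 to 0.56. Spacing is not to scale.

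Several H2A and H2B genes start back to back from overlapping promoter windows, and 4 of 10 such pairs had both genes tested. H2ac11 was higher (0.42) and its partner H2bc11 lower (-0.39). H2ac12 (0.21), H2ac15 (0.19) and H2ac7 (-0.01) were not called, whereas their partners H2bc12 (-0.46), H2bc15 (-0.36) and H2bc7 (-0.38) were lower. Those H2A genes belong to the bright set above, in which no gene was called, and their H2B partners do not. Whether the contrast goes with signal level was not tested. In a pair with only the H2A gene tested, H2ac8 was lower (-0.71) and H2bc8 has no value. The difference within a pair was not tested, and the probes of the 2 genes cannot be set against each other in level. The stretches before H2bc11 (chr13:22043048-22043197, plus strand) and H2bc12 (chr13:22035671-22035820, plus strand) are shown as the H2B side of such shared promoters, with ATTTGCAT, the octamer letters known from H2B promoters, also in capitals.
H2bc11: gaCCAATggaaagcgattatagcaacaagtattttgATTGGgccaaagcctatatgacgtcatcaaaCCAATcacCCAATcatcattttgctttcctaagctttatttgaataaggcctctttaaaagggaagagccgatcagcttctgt
H2bc12: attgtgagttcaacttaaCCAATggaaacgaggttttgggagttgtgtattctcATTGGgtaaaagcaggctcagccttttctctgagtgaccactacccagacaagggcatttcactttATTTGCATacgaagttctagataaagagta

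Within 250 bases before the start, on either strand, CCAAT was found in 82.5% of 63 histone promoter windows and in 33.8% of 32851 windows of all genes. TATAAA was found in 46.0% against 12.4%, and ATTTGCAT in 22.2% against 1.6%. CCAAT stood in all 18 H2A and all 17 H2B windows, in 8 of 10 H3 windows and in 3 of 12 H4 windows. ATTTGCAT stood in 7 H2A and 7 H2B windows. The windows of back-to-back H2A and H2B genes overlap, so some matches, such as the ATTTGCAT of H2ac12 and H2bc12, are counted for both genes. Of the windows of tested genes, 14 of 23 of the lower genes and 18 of 18 of the genes not called held CCAAT, and the lower genes include most H4 genes, few of whose windows held it. These matches describe letters in a window and show no binding.

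In all, 13 histone genes were not tested: H1f3, H1f4, H1f6, H2ac1, H2ac6, H2bc1, H2bc3, H2bc8, H2bc18, H4f16, H2aw, H2bu2 and H2bu1-ps. For 9 of them no probe was detected on any array. A signal at background on these arrays does not show that the gene was silent.

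Of the 10 replication-independent histone genes on the array, whose mRNAs mostly carry poly(A) tails, 9 were tested, 4 were lower (44.4%) and 1 was higher (11.1%), beside 20.4% and 23.3% of all tested genes. H2aj (-1.11 ± 0.12), H2az2, which encodes an H2A.Z protein (-0.56 ± 0.12), and H3f3b, which encodes the H3.3 variant (-0.54 ± 0.16), had the largest falls. Cenpa, the centromeric H3 variant, was higher (0.49 ± 0.12). The higher count was 3 without E14TG2A replicate 1.

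Of 18 tested genes for transcription and 3′ end processing of histone mRNA, 6 were higher (33.3%) and 1 was lower (5.56%) in i2PS, with a median of 0.35, beside 23.3% and 20.4% of all tested genes. Srrt, a cap-complex partner (1.54 ± 0.17), Zfp473, a zinc finger protein of the histone processing complex (1.01 ± 0.10), and Fip1l1, a polyadenylation factor (0.59 ± 0.13), had the largest rises, and Pcf11, a 3′ end cleavage factor, was lower (-0.61 ± 0.18). Slbp, the stem-loop binding protein, and Npat, the activator of histone transcription, had no probe detected on any array, so they have no value here. The higher count was 3 without i2PS replicate 2, and the lower count was 0 without E14TG2A replicate 1 or i2PS replicate 3.

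Of 19 tested histone chaperone genes, 5 were higher (26.3%) and 1 was lower (5.26%), with a median of 0.06. The higher share was near the 23.3% of all tested genes, of which 20.4% were lower. Hira, which deposits H3.3 (0.87 ± 0.15), Chaf1b, a subunit of the replication-coupled assembly factor (0.64 ± 0.12), and Tonsl (0.62 ± 0.15) had the largest rises, and Mcm2, a helicase subunit that also binds histones, was lower (-0.41 ± 0.11). The lower count was 0 without i2PS replicate 2 or 3 and 2 without E14TG2A replicate 1.

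Of 43 tested genes of S phase and of its onset, 11 were higher (25.6%) and 6 were lower (13.95%), with a median of 0.19. The higher share was near the 23.3% of all tested genes, and the lower share was below their 20.4%. E2f2 (1.23 ± 0.13) and E2f3 (1.16 ± 0.12), activators of S phase genes, and Rfc5, a subunit of the clamp loader (1.11 ± 0.10), had the largest rises. Gins2 (-0.46 ± 0.11), Rpa2 (-0.41 ± 0.13) and Mcm2 had the largest falls and act at the replication fork. The higher count was 7 without i2PS replicate 1 or 2 and 5 without replicate 3. The lower count was 2 without E14TG2A replicate 2, 1 without i2PS replicate 2 and 0 without i2PS replicate 3. No cell cycle phase was measured.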

How the data were processed

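Total RNA of 6 cultures was biotin-labelled and hybridised to 1-colour bead arrays, per the labels' protocols. The authors deposited linear probe intensity values with a detection p-value for each, and GenomeStudio is named in the submitters' processing notes. A second deposited intensity table, which its values show to be quantile normalized, served as an alternative. Signals were corrected with neqc in limma 3.58.1 (R 4.3.3), with the background taken from the detection p-values, an offset of 16 and quantile normalization, and were analysed as log2 values computed from the deposited intensities. One probe stood for each gene, and lmFit and eBayes were applied to 8651 genes with a Benjamini-Hochberg threshold of 0.05. Of the probes, 34885 carried 1 symbol, 18 several and 10378 none. The fit was tested on simulated data. The number of arrays limits the precision.

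The members, companion lists and tests were chosen with earlier results of these data known. All tested members are named, with values per array for the 4 largest rises, the 4 largest falls and the highest mean of each class. In companion lists up to 3 rises and 3 falls past the threshold are named, with Slbp and Npat, and at most 2 cluster neighbours. H4c4 was given per array after its value was seen. The alternatives were other background corrections, scalings, filters and probe choices, variance trend, array weights, a replicate block and each array left out. A slide block could not be run without slide labels.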

Additional observations from a re-analysis of the deposited data

How the results depend on the processing

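All 27 called histone genes kept their sign under each of the 18 settings that tested them (17 for H4c2 and H4c3), and 26 lost the call under at least 1. The median of the histone genes, -0.40, was -0.27 with normexp at an offset of 50, and -0.22 with no background correction, with equal medians and in the authors' table. It ran from -0.47 to -0.30 with each array left out. Lower histone genes numbered 16 to 26 and higher ones 1 to 4 with each array left out, and array weights gave 4 higher. Of all tested genes, 15.3% to 23.5% were lower with each array left out. With equal medians 634 genes passed in all, 1 histone gene was lower and 0 were higher (limma), where 3.2% of all tested genes were lower. At an unadjusted p under 0.05 the fit had 30 lower and 2 higher histone genes. The cause of these moves was not tested. Signals near background limit the dim genes.

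In the lists, equal medians gave 0 higher and 0 lower for the replication-independent histones, 2 and 0 for transcription and processing, 0 and 0 for chaperones, and 3 and 0 for S phase genes. For the replication-independent histones the higher count was 2 with every kept probe, 3 with array weights and 1 to 3 with each array left out. For transcription and processing the higher count was 12 with every kept probe and 3 to 8 with each array left out. Its lower count was 2 with normexp, array weights or the replicate block, 0 with no filter, 3 with every kept probe and 0 to 1 with each array left out. For chaperones the lower count was 2 with no background correction, the authors' table, every kept probe or the trend with robust moderation, 3 with array weights and 0 to 2 with each array left out. For S phase genes the higher count was 17 with no background correction or the authors' table and 5 to 13 with each array left out, and the lower count was 3 with the mean of a gene's probes and 0 to 6 with each array left out.

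Same-numbered arrays of the lines share only a number: the correlations of their deviations were 0.00886, -0.0467 and 0.0682, and not every array correlated best with its own number. With the replicate number as a block, 3613 genes passed in place of 3781, 26 histone genes were lower and 2 were higher, and the median stayed at -0.40.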

Other observations

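A set of 12 histone genes outside the replication-dependent family that are known mainly from germ cells, H1f7, H1f8, H2ab2, H2al1e, H2al1m, H2al1n, H2al2a, H2al2c, H2al3, H2ap, H2bfm and H2bl1, were detected on no array of either line, with deposited signals of 80.7 to 108.7.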
